A study of Homo sapiens
Mus musculus with 16 samples.

Results

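The inhibitor of DNA binding genes Id1, Id2, Id3 and Id4 and the inhibitory Smad genes Smad6 and Smad7 were followed in the host tissue of human bladder tumours grown in mice and given a receptor kinase inhibitor, a PI3K inhibitor or both. The 6 genes were taken by symbol from the mouse table, which lists 23337 genes, and all 6 had reads in every one of the 16 libraries and passed the filter on low values (4 or more libraries at 1 or above). They were chosen by symbol with their normalized values in the 4 groups of these libraries already known. Their treatment differences are therefore given as descriptions, with standard errors and without p-values.

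Bone morphogenetic proteins (BMPs) bind paired type I and type II receptor kinases, which phosphorylate Smad1, Smad5 and Smad9; these pair with Smad4 and switch on target genes, among which Id1, Id2 and Id3 are classical members. Id proteins lack a DNA-binding domain and hold basic helix-loop-helix (bHLH) factors away from DNA, and Id1 and Id3 together are known for their role in tumour vessels. Smad6 and Smad7 are induced by BMP and TGF-beta signals and block the receptors that induced them, so their transcripts are commonly read as feedback.

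The tumours were xenografts of ScaBER, an established human bladder cancer cell line with squamous features, in mice of the strain Hsd:Athymic Nude-Foxn1nu, which lack a thymus and so most T cells but keep NK cells and myeloid cells. The question was what the 2 drugs do together, in tumour cells and in the stroma around them. Each of 4 groups had 4 libraries: vehicle (0.5% methylcellulose with 0.1% Tween80), nintedanib at 40 mg/kg, alpelisib at 25 mg/kg, and the combination of both at these doses, each for 14 days. Nintedanib is a kinase inhibitor of the receptors for VEGF, PDGF and FGF, and alpelisib blocks the alpha catalytic subunit of PI3K. Every group therefore shares the ScaBER graft and the athymic host, and whether libraries stem from separate animals is not stated in the labels. The 3 comparisons against vehicle share the same vehicle libraries.

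RNA was read at transcript 3′ ends and mapped separately to human and mouse, which gave 8303617 to 18568119 human and 3606008 to 6850491 mouse reads per library. Values below are the deposited normalized values, in which 1 mouse read is worth 0.653 to 1.36 units depending on the library. Host markers were present, with no gene of a 15-gene endothelial list at 0 in any group, and the nintedanib 4 and combination 1 libraries stood apart through skeletal muscle transcripts (mean log2 scores of 6.86 and 6.13 above the vehicle mean). The alpelisib 1 library stood apart through skin epithelium transcripts (5.15 above the vehicle mean). For the tumour's squamous genes KRT5, KRT6A, KRT14, TP63, SFN and DSG3, the mouse counterparts had 0.0483% to 1.80% of the human count. Krt5 and Krt14 were also on the host skin epithelium list. Whether these mouse reads came from host skin or from tumour cells was not tested.

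Across the 6 genes, the Id genes did not move as a block. Id2 was higher in every library that had received nintedanib than in every library that had not, while Id1 and Id3 had lower group means with nintedanib and overlapping libraries. Id4 was close to the counting limit, Smad6 was low and varied widely, and Smad7 had nearly the same mean in all 4 groups.

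**Figure D1:**
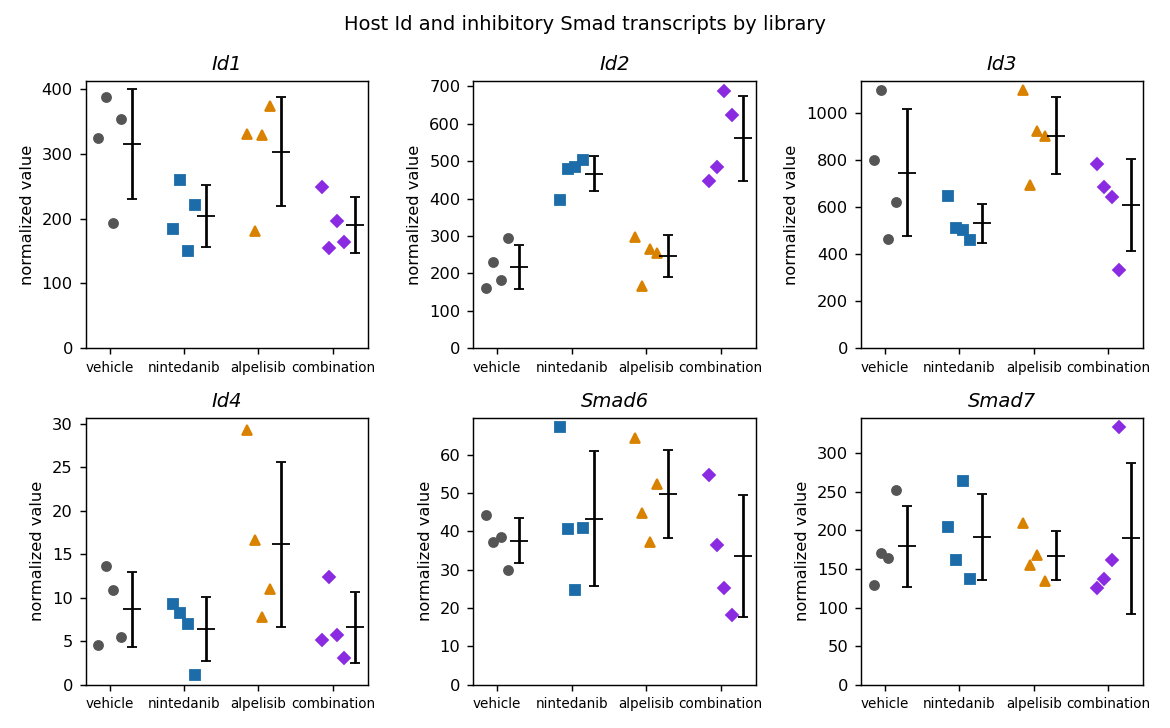
Normalized value (vertical axis, from 0, its own scale for each gene) of the 6 host genes in each of the 16 libraries, by treatment group; points are libraries in replicate order and the bars show the group mean ± SD (n = 4). For Id2 the nintedanib and combination libraries lie at 397 and above, and the vehicle and alpelisib libraries at 297 and below.

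Id1, which encodes the best-known BMP-induced Id protein, was at 325, 388, 193 and 353 in vehicle libraries 1 to 4. It was at 185, 260, 150 and 221 with nintedanib. With alpelisib it was at 331, 181, 329 and 374, and with the combination at 249, 154, 196 and 163. The vehicle 3 and alpelisib 2 libraries were low for their groups and lay inside the range of the nintedanib-treated libraries, so the groups overlapped in every comparison. Group means were 315 ± 85.2 with vehicle, 304 ± 84.3 with alpelisib, 204 ± 47.4 with nintedanib and 191 ± 43.0 with the combination (SD, n = 4). In that order neither vehicle and alpelisib nor nintedanib and the combination differed by more than their spread.

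On the log2(value + 1) scale, on which all fitted differences are given, Id1 was lower than vehicle by 0.61 (log2 difference -0.61, SE 0.26) with nintedanib and by 0.70 (-0.70, SE 0.26) with the combination. The alpelisib difference was -0.06 (SE 0.26). Averaged over both levels of alpelisib, 8 libraries with nintedanib against 8 without, the difference was -0.62 (SE 0.18), a fitted 0.649-fold. The departure of the combination from additive drug differences (combination minus nintedanib minus alpelisib plus vehicle) was -0.04 (SE 0.37). Id1 was counted from 128 to 477 reads per library. Counting error was 5.38% to 7.04% of the mean, below the spread between libraries of 22.6% to 27.8%.

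Id3, which shares expression in vessels with Id1, was at 799, 1097, 465 and 622 with vehicle. With nintedanib it was at 648, 512, 502 and 460. With alpelisib it was at 1096, 695, 921 and 904, and with the combination at 782, 684, 641 and 331. Vehicle 3 and vehicle 4 were the low vehicle libraries and overlapped the nintedanib range, and combination 4 was the lowest of all 16. Means were in the order alpelisib (904 ± 164), vehicle (746 ± 271), combination (609 ± 194) and nintedanib (531 ± 81.7, SD, n = 4), and no neighbours in that order differed by more than their spread.

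The fitted Id3 differences from vehicle were -0.43 (SE 0.26) with nintedanib, 0.33 (SE 0.26) with alpelisib and -0.29 (SE 0.26) with the combination. The combination lay below alpelisib alone by more (-0.62, SE 0.26), and the nintedanib difference averaged over alpelisib was -0.53 (SE 0.19), a fitted 0.695-fold. Id3 had 327 to 1160 reads per library, so its error came from libraries rather than counting.

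Id2, whose protein is best known for restraining E proteins in NK cells, other innate lymphoid cells and a branch of dendritic cells, went the other way. It was at 161, 231, 182 and 295 with vehicle and at 297, 166, 264 and 254 with alpelisib. It was at 397, 479, 485 and 504 with nintedanib and at 447, 485, 688 and 624 with the combination. The lowest library with nintedanib, nintedanib 1 at 397, lay above the highest without it, alpelisib 1 at 297. Means were 561 ± 114 with the combination, 466 ± 47.3 with nintedanib, 245 ± 55.9 with alpelisib and 217 ± 59.3 with vehicle (SD, n = 4). The step between nintedanib and alpelisib exceeded the spread, and the steps above and below it did not.

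Id2 was higher than vehicle by log2 1.13 (SE 0.22), a fitted 2.19-fold, with nintedanib, and by 1.38 (SE 0.22), 2.60-fold, with the combination. Against alpelisib alone the combination was higher by 1.20 (SE 0.22). Alpelisib itself shifted Id2 by 0.18 (SE 0.22) without nintedanib and by 0.25 (SE 0.22) with it, and its libraries overlapped the reference group both times. The nintedanib difference averaged over alpelisib was 1.16 (SE 0.15), and the departure from additivity was 0.07 (SE 0.31). Leaving out any 1 of the 16 libraries gave 1.08 to 1.24, and leaving out both muscle-rich libraries gave 1.20. Id2 rested on 151 to 742 reads per library, a counting error of 3.95% to 7.41% beside a spread of 10.1% to 27.3%.

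Id2 was the 1 member of 6 whose groups did not overlap when nintedanib was set against vehicle, where 3.69% of the 17484 mouse genes tested had groups that did not overlap. The same count, 1 of 6, held for the combination against vehicle (3.85% of all genes), for the combination against alpelisib (2.86%) and for 8 libraries with nintedanib against 8 without (0.0744%, 13 genes). No member had separate groups for alpelisib against vehicle (2.1%), the combination against nintedanib (2.48%) or alpelisib averaged over nintedanib (0.0114%). These shares describe the tables, and nothing is read from them about genes that were chosen with the values known.

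**Figure D2:**
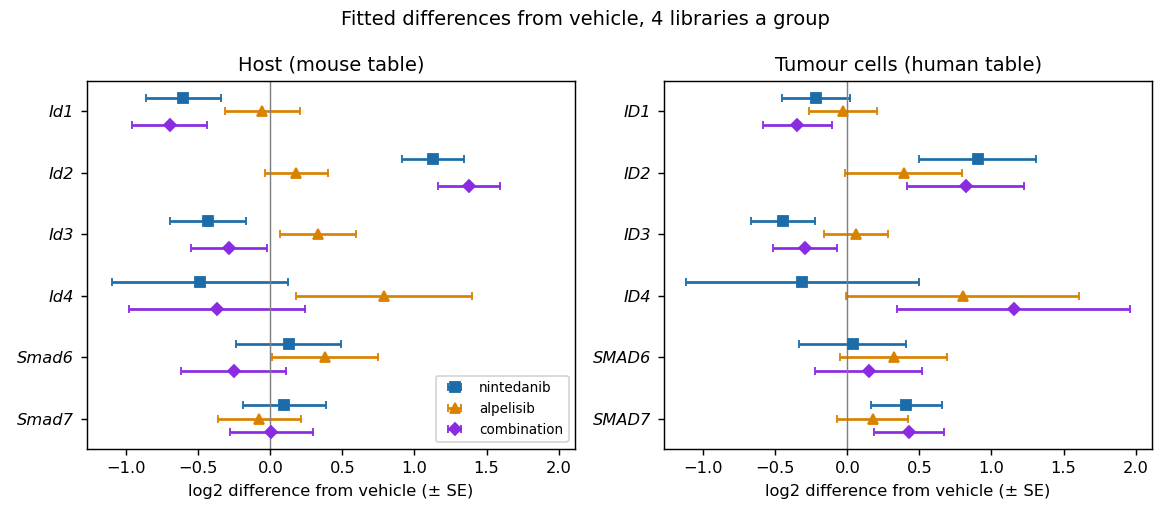
Fitted log2 difference from vehicle (horizontal axis) ± SE for the 6 genes in the host (left) and for their human counterparts in tumour cells (right), for nintedanib, alpelisib and the combination, with 4 libraries a group. Host Id2 lies at 1.13 and 1.38 with nintedanib and the combination, host Id1 at -0.61 and -0.70, and host Smad7 between -0.08 and 0.10.

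Id4, the family member known mainly from neural and mammary tissue, was at 4.61, 13.7, 10.9 and 5.46 with vehicle. With nintedanib it was at 9.33, 8.30, 7.03 and 1.11. With alpelisib it was at 29.3, 16.6, 7.80 and 11.0, and with the combination at 5.18, 12.4, 5.73 and 3.04. These values came from 1 to 31 reads per library, and all groups overlapped. The highest, alpelisib 1, was the library rich in skin epithelium transcripts; the part of skin in its Id4 value was not tested. The fitted alpelisib difference from vehicle was 0.79 (SE 0.61), and 0.46 without alpelisib 1. Averaged over alpelisib, the nintedanib difference was -0.82 (SE 0.43). Counting error was 23.9% to 39.2% of the mean and the spread between libraries 50.3% to 61.4%, so a moderate change in Id4 was not detectable with these libraries.

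Smad6, the inhibitory Smad most tied to BMP receptors and to endothelium, was at 44.3, 37.3, 38.6 and 30.0 with vehicle. It was at 67.2, 40.6, 24.6 and 40.9 with nintedanib. With alpelisib it was at 64.2, 44.7, 37.3 and 52.5, and with the combination at 54.7, 36.6, 25.2 and 18.2. Library 1 was the highest of its group in all 4 groups, and the groups overlapped in every comparison, with 18 to 74 reads per library. Means ran from 49.7 ± 11.5 with alpelisib through 43.3 ± 17.6 with nintedanib and 37.6 ± 5.86 with vehicle to 33.7 ± 15.9 with the combination (SD, n = 4). No neighbours differed by more than their spread.

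The fitted Smad6 differences from vehicle were 0.13 with nintedanib, 0.38 with alpelisib and -0.25 with the combination, each with an SE of 0.36. The departure from additivity was -0.76 (SE 0.52). Without the muscle-rich combination 1 library the combination difference was -0.52.

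Smad7, which antagonizes both TGF-beta and BMP receptors, was at 129, 170, 164 and 252 with vehicle and at 204, 161, 264 and 137 with nintedanib. It was at 210, 155, 168 and 135 with alpelisib and at 125, 137, 162 and 334 with the combination. Combination 4, nintedanib 3 and vehicle 4 were the high libraries, each in a different group, and the groups overlapped throughout. Means were 192 ± 55.5, 189 ± 97.3, 179 ± 52.2 and 167 ± 31.7 for nintedanib, the combination, vehicle and alpelisib (SD, n = 4), an order in which no neighbours differed. All 8 fitted contrasts for Smad7 lay between -0.09 and 0.10, with SEs of 0.20 to 0.41. The 95% interval for nintedanib against vehicle (normal approximation from the SE) ran from -0.47 to 0.66, so a shift of moderate size in either direction would not have been seen. Without combination 4 the combination difference from vehicle was -0.31 in place of 0.01.

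Over the 16 libraries, Id1 and Id3 followed each other (Pearson r 0.69, Spearman rho 0.62), and within groups, as deviations from group means, r was 0.57. Leaving out the 2 libraries farthest from the median of Id3 gave 0.58. Id1 and Id2 had r of 0.45 as deviations within groups, although their group means moved in opposite directions with nintedanib. Smad6 and Smad7 had r of -0.54 (rho -0.45), which fell to -0.05 without the 2 libraries farthest from the median of Smad7 and so rested on them. These values share libraries, depth and tissue makeup and are given as descriptions.

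The tumours also offered the human counterparts, which the choice of the mouse genes did not use and which were tested with limma. In tumour cells none of the 6 genes passed a limma adjusted p of 0.05 in any of 8 contrasts (48 tests, adjusted p 0.264 to 1). Of the 17663 human genes tested, limma called 0% in 7 of the contrasts and 0.00566% for the combination against alpelisib. By edgeR and DESeq2 0 of the 48 were called as well, and 3 had an unadjusted limma p under 0.05. The shares of all human genes for these 2 tools and for the unadjusted p are not given here, so nothing is read from these counts. ID2 was at 60.0, 133, 39.1 and 136 with vehicle and at 99.2, 154, 105 and 332 with nintedanib. It was at 194, 83.6, 72.3 and 108 with alpelisib and at 150, 107, 150 and 178 with the combination. The ID2 groups overlapped in every comparison, as did those of the other 5 human counterparts. Groups did not overlap for 8.08% of all human genes with nintedanib against vehicle, 1.92% with alpelisib, 2.86% with the combination, 3.5% for the combination against nintedanib and 3.09% against alpelisib. Over 8 against 8 libraries the share was 0.0679% for nintedanib and 0.0283% for alpelisib. The fitted ID2 difference for nintedanib averaged over alpelisib was 0.67 (SE 0.29, limma adjusted p 0.303), and 0.90 (SE 0.40, adjusted p 0.400) against vehicle.

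ID1 had a mean of 3077 ± 709 with vehicle, 2669 ± 818 with nintedanib, 3060 ± 1000.2 with alpelisib and 2409 ± 525 with the combination (SD, n = 4). ID3 had means of 1653 ± 257, 1229 ± 284, 1717 ± 174 and 1407 ± 510 in the same order. Averaged over alpelisib, the nintedanib differences were -0.27 (SE 0.17, limma adjusted p 0.477) for ID1 and -0.40 (SE 0.16, adjusted p 0.264) for ID3. SMAD7 differed by 0.33 (SE 0.17, adjusted p 0.391) and SMAD6 by -0.07 (SE 0.26, adjusted p 0.934). ID4 had 38 human reads in all 16 libraries together and differed by 0.02 (SE 0.57, adjusted p 0.992).

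The human and mouse values of Id1, Id2 and Id3 moved together from library to library, and those of Smad7 did so somewhat less. For Id3 and ID3 Pearson r was 0.77 (rho 0.78) over 16 libraries, for Id2 and ID2 0.66 (0.65), and for Id1 and ID1 0.61 (0.61). As deviations from group means these were 0.68, 0.61 and 0.53. For Smad7 and SMAD7 r was 0.45 (0.54), and 0.49 as deviations. It was -0.03 for Smad6 and -0.13 for Id4, and pairs of other genes were not compared. Over all libraries Id1 had 4177 mouse and 46441 human reads, so its mouse count was 8.99% of its human one. Id3 had 11719 mouse and 24779 human reads, and Id2 had 6209 mouse and 2112 human reads. All 3 mouse shares lay above the 1.80% reached by the squamous genes, and Id2 had more mouse than human reads in every library (ratios of 1.23 to 6.38). How many reads of one species were counted in the other table was not tested for these genes; of genes typical of host cells, the human table held 0.13% of the mouse count for CDH5, 1.54% for PECAM1, 4.70% for PTPRC and 45.3% for COL1A1.

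Host vessels were the first tissue to set beside the Id genes, because Id1 and Id3 are known from endothelium and nintedanib blocks VEGF receptors. Of 15 endothelial genes, 14 had a fitted difference below 0 for nintedanib averaged over alpelisib, with a median of -0.54 beside 0.02 for all mouse genes tested. By limma 2 of the 15 fell, against 0.0972% of all genes called in that contrast (17 genes). These were Cdh5, the endothelial cadherin (-0.91, SE 0.18, adjusted p 0.0479), and Esam, an endothelial adhesion molecule named here after its value was seen (-0.82, SE 0.15, adjusted p 0.0343). Leaving out single libraries ended the Cdh5 call in 12 of 16 cases (adjusted p 0.0611 to 0.138) and the Esam call in 9 of 16 (0.0606 to 0.123). Of 10 other settings, 4 ended each call, with adjusted p up to 0.337 for Cdh5 and 0.365 for Esam: edgeR, limma without the trend and scaling to the summed human and mouse reads for both, no filter on low values for Cdh5, and the replicate block for Esam. In bulk tissue, fewer endothelial cells and less of these transcripts per cell cannot be told apart, for markers and Id genes alike.

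Cdh5 was at 543, 521, 702 and 865 with vehicle and at 187, 302, 349 and 534 with nintedanib. It was at 467, 566, 639 and 656 with alpelisib and at 399, 300, 300 and 312 with the combination. Among the genes of the drug's targets, Kdr, which encodes VEGF receptor 2, differed by -0.32 (SE 0.14, limma adjusted p 0.540), Flt1 by -0.21 (SE 0.19, adjusted p 0.810) and Pdgfrb by -0.35 (SE 0.14, adjusted p 0.467). The general endothelial marker Pecam1 differed by -0.41 (SE 0.19, adjusted p 0.563), and none of these 4 passed. The averaged values do not show the alpelisib group, which was also low for Flt1 and Kdr. Against vehicle Flt1 differed by -0.65 with nintedanib, -0.83 with alpelisib and -0.60 with the combination (SE 0.27 each). For Kdr these were -0.49, -0.41 and -0.55 (SE 0.20 each).

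Averaged over alpelisib, the Id1 and Id3 differences were close in size to the endothelial one. The mean of the endothelial list on the log2 scale differed by -0.54 for nintedanib averaged over alpelisib. Id1 taken relative to that mean differed by -0.08, and Id3 by 0.01. Relative to the endothelial mean, Id1 was at 0.48 ± 0.45 with vehicle, 0.42 ± 0.55 with nintedanib, 0.53 ± 0.38 with alpelisib and 0.42 ± 0.21 with the combination (SD, n = 4). Id3 was at 1.70 ± 0.61, 1.81 ± 0.72, 2.13 ± 0.31 and 2.04 ± 0.50 in the same order. Its relative difference from vehicle was 0.12 with nintedanib, 0.43 with alpelisib and 0.35 with the combination, so the averaged 0.01 did not hold for each comparison. Id2 relative to the same mean differed by 1.70, from -0.05 ± 0.34 with vehicle and 0.24 ± 0.35 with alpelisib to 1.63 ± 0.43 with nintedanib and 1.97 ± 0.56 with the combination. Across libraries Id1 had r of 0.66 (rho 0.59) with the endothelial score, 0.64 without the 2 libraries farthest from its median and 0.36 as deviations within groups. For Id3 these were 0.30 (rho 0.15), 0.36 and -0.09. The summed endothelial values ran from 5416 to 6470 with vehicle, 2784 to 5597 with nintedanib, 4637 to 6594 with alpelisib and 3135 to 4658 with the combination. The part of vessel content in the Id1 and Id3 values was not tested.

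**Figure D3:**
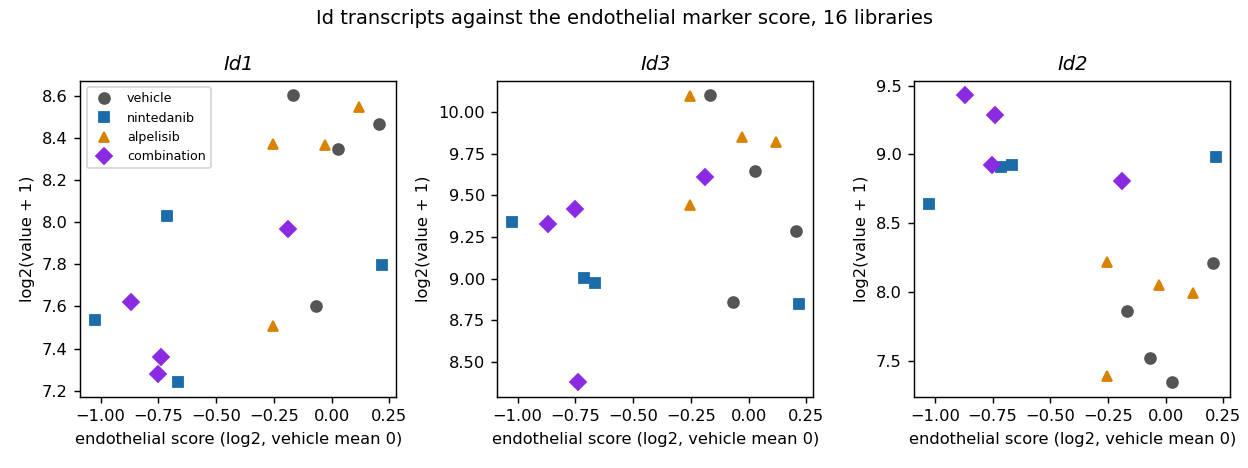
Host Id1, Id3 and Id2 (vertical axes, log2(value + 1), not starting at 0) against the endothelial score of the same library (horizontal axis, mean log2 of 15 genes, vehicle mean set to 0); each point is 1 of 16 libraries. Id1 has r of 0.66 with the score, and the nintedanib 4 library, an Id2-high library, has the highest endothelial score of the 16.

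Immune cells were the second tissue to set beside Id2. Of 7 NK and T cell genes, 6 had a difference above 0 for nintedanib averaged over alpelisib (median 1.57) and none passed the limma test. Their summed values ran from 12.4 to 47.0 with vehicle, 25.2 to 285 with nintedanib, 19.8 to 68.1 with alpelisib and 61.4 to 397 with the combination, and Gzmb was at 0 in the nintedanib group. The NK sums overlapped between nintedanib and vehicle, where Id2 did not, and lay above every vehicle library with the combination. Over the 16 libraries r between Id2 and the NK score was 0.63 (rho 0.61), 0.51 without the 2 libraries farthest from the score's median and 0.14 as deviations within groups. Of 6 dendritic cell genes, 6 lay above 0 (median 0.55) with none called, and their summed values were 87.3 to 112 with vehicle, 116 to 161 with nintedanib, 94.6 to 116 with alpelisib and 127 to 255 with the combination. The sums met almost without a gap between libraries with nintedanib (116.03 and above) and without it (115.93 and below), a distance worth less than 1 read. The dendritic score, the mean log2 of the same genes relative to vehicle, overlapped, with alpelisib 1 at 0.63 and vehicle 1 at 0.60 above nintedanib 3 at 0.15. Over the 16 libraries r between Id2 and this score was 0.59 (rho 0.53), 0.44 without the 2 farthest libraries and -0.07 as deviations within groups. Macrophage genes had a median of 0.02 (4 of 7 above 0), with Csf1r at -0.07 (SE 0.20, limma adjusted p 0.951). Scores of other cell types had r of similar size with Id2 over the 16 libraries: -0.60 for endothelial, -0.58 for smooth muscle and 0.46 for neutrophil genes. As deviations within groups these were 0.09, -0.20 and 0.04. The largest within groups were -0.58 for adipocyte and -0.50 for Schwann cell genes. The part of any of these cell types in the Id2 value was not tested.

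Of the other host lists, fibroblast genes had a median of 0.26, with Pdgfra at 0.41 (SE 0.20, limma adjusted p 0.573), and pericyte genes -0.24, with Rgs5 at -0.42 (SE 0.41, adjusted p 0.820). Medians were -0.48 for smooth muscle, 0.18 for neutrophil, 1.55 for skeletal muscle, -1.40 for adipocyte, -0.20 for skin epithelium and 0.04 for Schwann cell genes, with no gene called in any of them. Smad7 ran against the adipocyte score over the 16 libraries (r -0.67, rho -0.77), and r was -0.60 without the 2 libraries farthest from that score's median. This was the largest r of Smad7 with a marker score, and others were not far below. With the Schwann cell score r was -0.53 (rho -0.59) and with the skin epithelium score 0.48 (rho 0.61). As deviations within groups, r was -0.67 for adipocyte, -0.52 for Schwann cell and 0.53 for skin epithelium genes. The part of any of these tissues in the Smad7 values was not tested.

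The rest of the pathway was read from 95 listed genes, of which 85 passed the filter on low values. By limma none passed in any of the 8 contrasts, 0 of 85 beside 0.0515% of all mouse genes called for the combination against vehicle and 0% in 6 contrasts. For nintedanib averaged over alpelisib 12 of the 85 had an unadjusted limma p under 0.05. The count was 8 for nintedanib alone, for the combination against vehicle and for the combination against alpelisib. It was 4 for alpelisib alone and 2 to 3 in the remaining contrasts. The share of all mouse genes under the same limit is not given here, so nothing is read from these counts. In the averaged contrast the smallest limma adjusted p was 0.178, and limma called 0.0972% of all mouse genes. There edgeR called 0 of the 85 and DESeq2 called 1, and their calls over all mouse genes are given in the closing section. The groups of genes below are described for nintedanib averaged over alpelisib, where 52.5% of all mouse genes tested lay above 0.

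Of 9 BMP ligand genes tested, 8 lay below 0 (median -0.50). Bmp4, a main inducer of Id genes in mesenchyme and vessels, was at 124, 131, 147 and 139 with vehicle and at 65.3, 78.4, 36.3 and 85.2 with nintedanib. It was at 130, 76.9, 173 and 155 with alpelisib and at 169, 54.2, 25.2 and 22.3 with the combination. All nintedanib libraries lay below all vehicle libraries, while in the combination group the muscle-rich library 1 was the exception at 169. The Bmp4 difference was -1.24 (SE 0.32, limma adjusted p 0.178). Without combination 1 it was -1.54 (limma adjusted p 0.00859) and passed the threshold, and without both muscle-rich libraries it was -1.61 (adjusted p 0.00571). Combination 1 held the highest Bmp4 value of the libraries with nintedanib, so leaving it out had to deepen the difference. The share of all mouse genes called in these reduced fits is not given here, so the calls are not read as particular to Bmp4. Bmp3, which acts against other BMPs, differed by -0.83 (SE 0.52, adjusted p 0.687).

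BMP receptors were evenly split, with 5 of 10 above and 5 below 0 (median 0.00). Bmpr2, the type II receptor, differed by 0.46 (SE 0.29, limma adjusted p 0.692) and Bmpr1a, a type I receptor, by 0.28 (SE 0.16, adjusted p 0.660). Of 12 BMP antagonist genes, 11 lay above 0 (median 0.31). Sostdc1, a secreted BMP and Wnt antagonist, had 1 read in all vehicle libraries together and 4 to 11 reads per library with nintedanib or the combination. With alpelisib it had 31 reads in the skin-rich library 1, and 6, 4 and 1 in libraries 2 to 4. Its averaged nintedanib difference was 1.27 (SE 0.48, limma adjusted p 0.422). Against vehicle it differed by 2.20 (SE 0.67) with nintedanib alone and by 2.41 (SE 0.67) with alpelisib alone. Chrdl2, a chordin-like antagonist, was at or near 0 throughout (0.90, SE 0.40, adjusted p 0.546).

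Smads and Smurf ligases had a median of 0.04 (4 of 8 above 0), with Smad3, which carries TGF-beta signals, at 0.38 (SE 0.16, limma adjusted p 0.513) and the shared partner Smad4 at 0.18 (SE 0.14, adjusted p 0.763). Of 9 other BMP target genes, 7 lay below 0 (median -0.29). Hey1, a Notch and BMP target in endothelium, was at 55.3, 56.0, 53.1 and 42.3 with vehicle and at 27.1, 19.4, 32.8 and 27.6 with nintedanib. With alpelisib it was at 31.2, 47.8, 82.3 and 85.4, and with the combination at 47.3, 34.6, 40.1 and 24.3. Hey1 thus lay below every vehicle library with nintedanib alone and overlapped vehicle with the combination (-0.80, SE 0.24, adjusted p 0.250). Msx2, a homeobox target of BMP signals, was near 0 in most libraries (-1.55, SE 0.59, adjusted p 0.432).

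TGF-beta ligand and receptor genes had a median of -0.01 (6 of 12 above 0) and TGF-beta target genes 0.07 (5 of 9 above 0). The latent TGF-beta binding proteins Ltbp2 and Ltbp3 differed by 0.51 (SE 0.19, limma adjusted p 0.427) and -0.35 (SE 0.19, adjusted p 0.608). Among the targets, the cell cycle inhibitor Cdkn2b differed by -0.71 (SE 0.33, adjusted p 0.564). The bHLH genes whose products Id proteins bind or oppose had a median of -0.03, with 8 of 16 above 0. Msc, a bHLH repressor, differed by -0.91 (SE 0.25, adjusted p 0.209) and Tal1, a blood and endothelial bHLH factor, by -0.57 (SE 0.27, adjusted p 0.565).

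**Figure D4:**
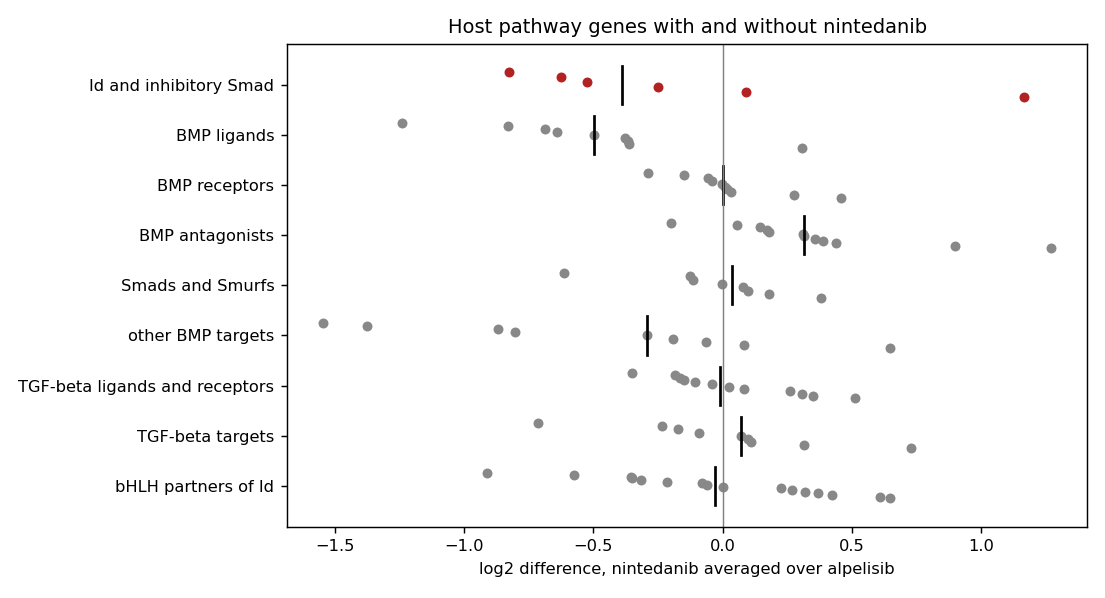
Fitted log2 difference for nintedanib averaged over alpelisib (horizontal axis) of each host gene tested, by list (rows); grey points are listed genes, red points the 6 Id and inhibitory Smad genes, and black bars list medians. BMP ligands have a median of -0.50 and BMP antagonists of 0.31, and among the red points Id2 stands alone at 1.16.

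Among well-expressed host genes (8741 compared for Id1, Id2, Id3 and Smad7, and 8742 for Id4 and Smad6), those whose log2 values followed each member most closely over the 16 libraries were named by a rule of rank. Bmp4 was the third of the genes nearest to Id1 (r 0.74, rho 0.71), after Rftn1 (0.82, 0.73) and 1810008A18Rik (0.78, 0.82). For Id2 they were Ifnar2 (0.84, 0.85), Tm2d1 (0.83, 0.78) and Ndufs4 (0.83, 0.78). For Id3 they were Rnf215 (0.85, 0.80), Yrdc (0.84, 0.76) and Bok (0.84, 0.80). Smad7 had the closest neighbours of the 6, with Bsdc1 (0.90, 0.82), Siah1a (0.90, 0.80) and Tes (0.88, 0.86). For Smad6 they were Grap (0.80, 0.77), Med22 (0.79, 0.60) and Mtfr1 (0.79, 0.63), and for Id4 they were Entpd3 (0.73, 0.64), 2310047B19Rik (0.72, 0.76) and Ppapdc2 (0.72, 0.70). These are the highest of many correlations over shared libraries and are given as descriptions.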

How the data were processed

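The authors deposited 1 table of signal per species, with scaled expression values of each gene in each library. TopHat, hg19 and mm10 are named per the submitters' processing notes, and the scaling, counting tool and annotation were not given in the sources used here. Values above 0 were whole multiples of the value of 1 read in their library, within 0.01 read (100% of values), so whole reads were recovered. Values were analysed as log2(value + 1), for genes at 1 or more in at least 4 libraries (17484 mouse, 17663 human). The plan had a branch for counts and one for normalized values, and the second was followed. One mean per group was fitted to all 16 libraries with limma 3.58.1 (trend) in R 4.3.3, with Benjamini-Hochberg adjustment over all genes tested and a threshold of 0.05; the steps were tested on simulated data. Members and lists were chosen with earlier results of these data known. Genes named are the members and their counterparts, up to 2 genes per pathway list with the smallest p for nintedanib averaged over alpelisib, 3 nearest genes per member among those at or above median expression, the drug targets' genes and defining markers. One gene that this rule names is not reported here. P-values speak only of the spread between libraries, which may be technical. Alternatives were quantile normalization, scaling to human plus mouse reads, limma without trend, other filters (none, 10), a pseudocount of 0.1, a replicate block, only the groups compared, edgeR 4.0.16 and DESeq2 1.42.0 on recovered reads, each library left out, and both muscle-rich libraries left out. Reads without molecular identifiers give counting error only. No sequence or coordinate is given, since no mouse reference was used here.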

Additional observations from a re-analysis of the deposited data

Results flagged for a closer look

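In 48 groups of 4 libraries (12 genes, 4 groups), a library far from the other 3 was found in 2, both in the tumour-cell values; chance flags about 1 in 20 groups. Human SMAD6 was at 21.9 in alpelisib 2, while the other alpelisib libraries were at 76.7, 81.0 and 71.2. Human ID4 was at 1.59 in nintedanib 2, from 2 reads, with the other nintedanib libraries at 0. With the other 3 tied at 0, any single value above 0 is flagged, so the rate of 1 in 20 does not apply to ID4. No group of the 6 host genes had such a library.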

How the results depend on the processing

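Of 1278 recomputed member differences 1277 stayed within 1 SD of the reported value. Leaving out 1 library of 4 cannot move a group mean that far. Another filter, variance model or replicate block leaves the fitted difference as it was. The count was thus largely fixed beforehand and says little about stability. Host Id2, combination minus vehicle, moved to 1.70 after scaling to the summed human and mouse reads. This scaling raised the median of all mouse genes to 0.32 there and to 0.12 for nintedanib averaged over alpelisib. Host Id1 stayed below 0 and host Id2 above 0 in every setting of nintedanib minus vehicle (27), combination minus vehicle (27) and nintedanib averaged over alpelisib (26), while Id3, combination minus vehicle, was 0.04 with that scaling. The count of pathway genes past the threshold, 0 in the report, was 1 for combination minus vehicle and 1 for nintedanib averaged over alpelisib without combination 1 (leave-one-out range 0 to 1) and without the muscle-rich libraries, and 1 for the latter contrast with DESeq2 (Msc, adjusted p 0.0431). For the fits with libraries left out, the share of all mouse genes called is not given beside these counts. Some values for nintedanib averaged over alpelisib changed sign. Host Smad7, 0.09 as reported, was at -0.07 without combination 4. Human ID4, 0.02 as reported, was at -0.15 (quantile), -0.59 (pseudocount 0.1) and -0.28 to 0.32 with single libraries left out. Human SMAD6, -0.07 as reported, was at -0.29 to 0.019 with single libraries left out. Host Csf1r was at 0.036 with the human plus mouse scaling. It was at -0.20 to 0.071 with single libraries left out, above 0 without alpelisib 3 or combination 4. Whether a shared replicate number marks a batch is not stated in the labels. Deviations of same-numbered mouse libraries correlated at -0.58 to 0.52, with a median of -0.02, and 8 of 24 pairs exceeded 0.1. These correlations carry tissue makeup as well and cannot settle whether some libraries share a batch. Each group holds each replicate number once, so the replicate block could not change a fitted difference (Id2 stayed at 1.16), only its error. With the block the Esam call was lost (limma adjusted p 0.103). Calls over all mouse genes went from 17 to 12 for nintedanib averaged over alpelisib and from 9 to 3 for combination minus vehicle. DESeq2 called 156 and edgeR 12 genes in the former. Read numbers were lowest for Id4, Smad6 and human ID4, where both counting and the spread between libraries limit what can be seen.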
